A study of Danio rerio with 4 samples.

Results

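The genes described here are the small nucleolar RNA (snoRNA) and small Cajal body-specific RNA (scaRNA) genes of the zebrafish, as read in adult gonads. They were chosen by a rule on gene names, with earlier results of these data known. A gene ID was taken when its Ensembl symbol began with snora, snord, snou or scarna, or was u3 or u8, and 107 of the 32520 gene IDs in the count table did so. By symbol, 83 IDs were of the C/D box class (snord and u3), 22 were of the H/ACA box class (snora) and 2 were Cajal body RNAs (scarna8 and scarna14). No ID carried a symbol that began with snou or equalled u8. Of the 107 IDs, 46 had at least 1 read count and 25 had at least 10 counts over all libraries, and the results below are given for these 25 members.

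The study examined sex differences and hormone-driven sex change in zebrafish gonads, and the samples here were its untreated adult controls. The 4 libraries were from AB strain zebrafish, 2 ovaries of adult females and 2 testes of adult males, with no treatment in either group. RNA was extracted from each individual fish, so a library is a whole gonad of 1 fish with all the cell types that the organ holds. The comparison of testis with ovary asks how the sexes differ at baseline.

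SnoRNAs are short noncoding RNAs that act with bound proteins in the nucleolus, where ribosomal RNA is made. C/D box RNAs guide the methylation of ribose in target RNAs through the enzyme fibrillarin, and H/ACA box RNAs guide the change of uridine to pseudouridine through dyskerin. A few members, such as U3, U8 and the RNA encoded by snora73, are needed for the cutting of the ribosomal RNA precursor, and scaRNAs guide the same modifications on spliceosomal RNAs in Cajal bodies. In vertebrates most of these RNAs are cut out of the introns of host genes, and growing oocytes are known for making and storing large numbers of ribosomes.

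The libraries held between 11554811 and 26137839 counts, and both testis libraries were shallower than both ovary libraries. Levels are given as CPM, counts per 1000000 of a library size that the TMM method (trimmed mean of M-values) adjusts, and fold changes are testis minus ovary on the log2 scale. CPM is not corrected for gene length, so levels are compared between groups and not between genes. The labelled tissues fitted their marker genes, with 6 of 6 ovary markers higher in ovary and 6 of 6 testis markers higher in testis by edgeR. The summed level of the ovary markers was between 2785 and 3645 CPM in the ovaries and between 32.2 and 37.4 CPM in the testes. Blood markers summed to at most 7.60 CPM in the ovaries and at least 42.4 CPM in the testes, with 1 of 3 called higher in testis. The called gene was cahz, at 1.01 and 1.88 CPM in ovary against 35.4 and 37.0 CPM in testis, most of the testis sum. The groups overlapped for hbaa1, at 1.69 and 4.91 against 9.19 and 4.28 CPM, and alas2 did not pass (adjusted p 0.103 by edgeR). Liver markers summed to at most 5.45 CPM in the ovaries and at least 8.11 CPM in the testes. Of 3 tested, 2 were called higher in testis. None of the 7 blood and liver markers in the table was at 0 in any library. The part of these cell types in the results below was not tested.

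SnoRNA and scaRNA genes were thinly read in these libraries. Of the 107 member IDs, 23.4% reached 10 counts in total, against 77.6% of all gene IDs. The share with any count was 43.0%, against 90.1% of all IDs. C/D box IDs reached 10 counts in 13 of 83 cases and H/ACA box IDs in 11 of 22. All members together had 385 counts in ovary replicate 1, 2211 in ovary replicate 2, 864 in testis replicate 1 and 744 in testis replicate 2. The high total of ovary replicate 2 came from a single U3 gene, without which the totals were 364, 330, 863 and 736 counts in the same order. The 25 members with at least 10 counts held 98.2% of all member counts. Of the other 82 IDs, 61 had no count in any library and 21 had between 1 and 9, with 77 counts in all. The members on the minimum, with 10 counts each, were snord118b.1, snord24 and 1 snord83 ID, and just under it lay 1 snord58 ID with 9. At this depth an RNA with no count cannot be called absent.

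**Figure D1:**
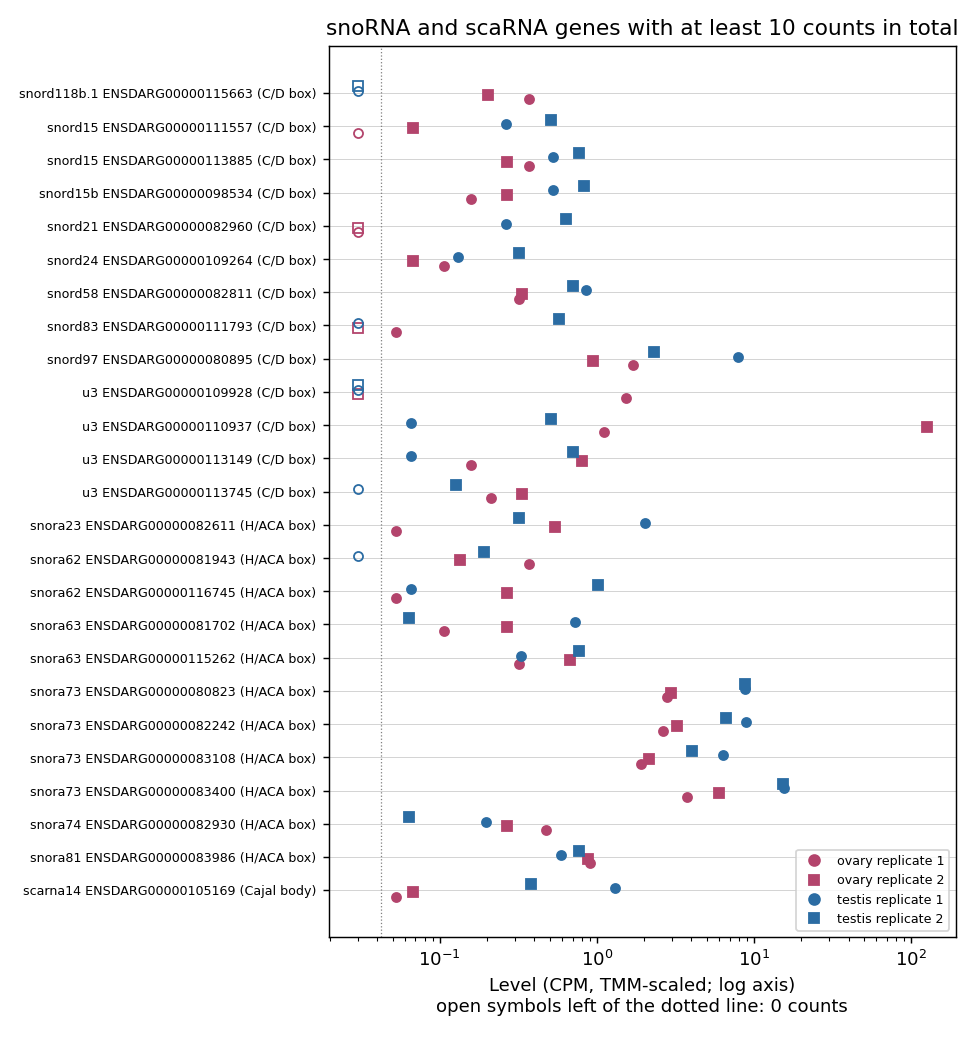
Level of each of the 25 members with at least 10 counts in each of the 4 libraries (CPM on a log axis; open symbols mark libraries with 0 counts). The 4 snora73 IDs sit higher in both testes than in both ovaries, while the U3 gene ENSDARG00000110937 stands at 126 CPM in ovary replicate 2 and at most 1.11 CPM in the other libraries.

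The filter on low counts (filterByExpr) left 21815 genes, among them 11 of the 25 members, 6 of the C/D and 5 of the H/ACA class. In edgeR's quasi-likelihood test, with Benjamini-Hochberg adjustment over all genes tested, 3 of the 11 members passed an adjusted p of 0.05, against 65.2% of all genes. The 2 called higher in testis were snora73 copies, where 36.7% of all genes were called. The 1 called higher in ovary was a U3 gene, where 28.5% of all genes were called. The median log2 fold change over the 11 tested members was 1.35 and over all genes tested 0.45. Scaling moved the latter to 0.38 with DESeq2 size factors and to 1.19 with library size alone, under which 9 members were called, 8 higher in testis and 1 higher in ovary. Of all genes 65.3% were called with that scaling, 47.7% higher in testis and 17.6% higher in ovary. Members such as snord15b passed the filter through the testis libraries, in which they were read more, and the called U3 gene passed through the ovaries. The member median and the order of the groups in members past the filter are therefore only descriptions. Without ovary replicate 1 only the U3 gene was called. Reading all 25 members needed a lower minimum of 10 counts in total, at which 7 members were called, 4 higher in testis and 3 higher in ovary. Of these, scarna14, snord21, snord118b.1 and the U3 gene ENSDARG00000109928 reached that minimum only through the group called higher. Their calls are therefore descriptions. Of the 25235 genes tested there 59.5% were called, 34.3% higher in testis and 25.3% higher in ovary. The groups did not overlap for 17 of the 25 members, with both testes higher for 12 and both ovaries higher for 5. Over the 25235 genes the share without overlap was 81.9%, with both testes higher in 49.2% and both ovaries higher in 32.7%. Of the 11 members past filterByExpr, both testes were higher for 8 and both ovaries for 2, against 48.1% and 36.6% of the genes there, which did not overlap in 84.7%. In whole organs, fewer cells of a type and less RNA per cell cannot be told apart.

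The summed level of the H/ACA class was higher in both testes than in both ovaries. Its 22 IDs added up to 13.9 and 17.9 CPM in ovary against 44.4 and 38.0 CPM in testis, a mean of 15.9 ± 2.83 against 41.2 ± 4.49 CPM (SD, n = 2 each). No test was run on the class sums. The IDs of 1 symbol, snora73, made up most of the class level. The snora73 IDs took 80.2% of the H/ACA counts in ovary replicate 1 (exact binomial 95% interval 74.8 to 84.8%) and 80.1% in ovary replicate 2 (74.8 to 84.7%). They took 89.3% in testis replicate 1 (86.8 to 91.6%) and 91.3% in testis replicate 2 (88.7 to 93.4%). Such intervals, and the floors used below, cover counting error only.

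**Figure D2:**
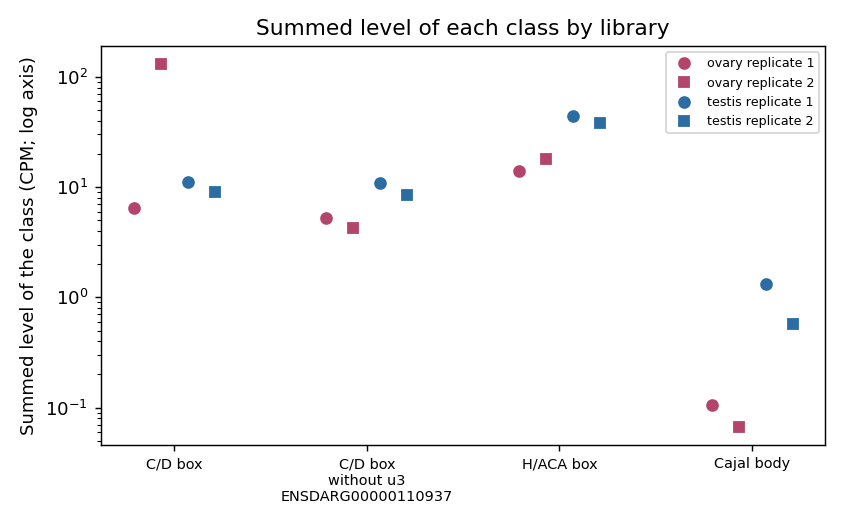
Summed level of each class in each library (CPM on a log axis), with the C/D class shown with and without the U3 gene ENSDARG00000110937. The H/ACA class adds up to 13.9 and 17.9 CPM in ovary against 44.4 and 38.0 CPM in testis, and the C/D class reaches 131 CPM only in ovary replicate 2.

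In human, the snora73 RNA is known as U17, an abundant H/ACA RNA that acts in cutting the ribosomal RNA precursor and has no known site of modification. The zebrafish table held 4 IDs of this symbol. The most read copy, ENSDARG00000083400, had 71 and 89 counts in the ovaries and 238 and 239 counts in the testes, or 3.76 and 5.98 against 15.6 and 15.3 CPM. It was higher in testis, with a log2 fold change of 1.67 ± 0.43 (SE, adjusted p 0.0160 by edgeR). The copy ENSDARG00000080823 had 53 and 44 counts in the ovaries against 134 and 137 in the testes, or 2.81 and 2.96 against 8.79 and 8.75 CPM. It was higher in testis, at 1.60 ± 0.49 (SE, adjusted p 0.0281 by edgeR). The ovaries of the first copy differed from each other by more than its testes did, and in both copies the lower testis lay well above the higher ovary. Relative to the median of all genes the changes were 1.22 and 1.15.

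The other copies had the same direction without passing the threshold. ENSDARG00000082242 had levels of 2.65 and 3.23 CPM in ovary against 8.86 and 6.64 CPM in testis (log2 fold change 1.40 ± 0.52 SE, adjusted p 0.0536 by edgeR). ENSDARG00000083108 had levels of 1.91 and 2.15 CPM in ovary against 6.36 and 4.02 CPM in testis (1.35 ± 0.59, edgeR adjusted p 0.0832). In both, the lower testis exceeded the higher ovary. The copies kept similar proportions in all libraries, with ENSDARG00000083400 at 33.8 to 44.0% of their summed counts and ENSDARG00000083108 at 11.6 to 17.1%. Genes that share a symbol may share sequence, and reads that fit several copies may have been dropped or split, so the value of each copy is uncertain. Summed to 1 feature before the fit, the 4 copies had 210 and 213 counts in the ovaries and 604 and 543 in the testes. The sum was higher in testis, at 1.55 ± 0.28 (SE, adjusted p 0.00458 by edgeR).

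The calls of single copies rested on few libraries. ENSDARG00000083400 passed without ovary replicate 2 (edgeR adjusted p 0.0243) and did not pass without any other library (adjusted p from 0.0577 to 0.0668). ENSDARG00000080823 passed in none of the 4 fits that left out a library (adjusted p from 0.0714 to 0.0988), nor with replicate numbers as a block (adjusted p 0.0603). The direction was the same in all of these fits.

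**Figure D3:**
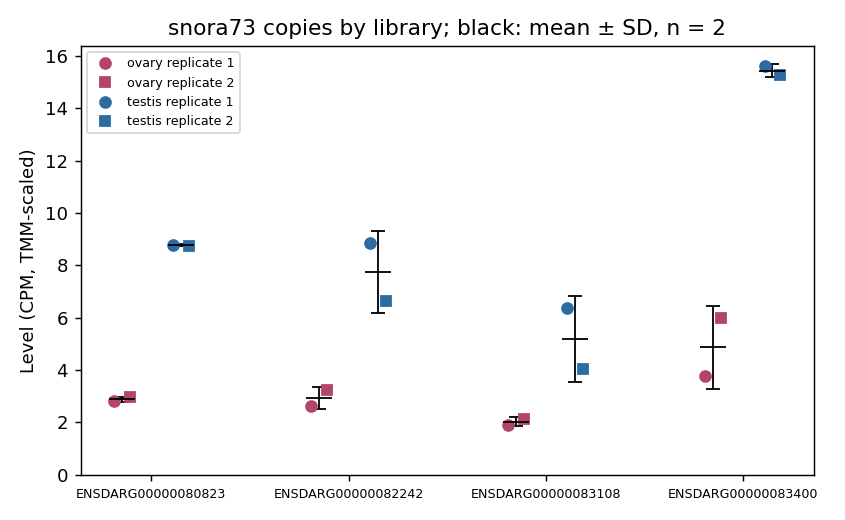
Level of the 4 snora73 IDs in each library (CPM, linear axis from 0; black bars give the mean and SD of 2 libraries). In every copy both testes lie above both ovaries, as in ENSDARG00000083400, at 15.6 and 15.3 against 3.76 and 5.98 CPM.

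The rest of the H/ACA class showed no shared direction. The gene snora81 (ENSDARG00000083986) had 17 and 13 counts in the ovaries and 9 and 12 in the testes. Its log2 fold change was -0.38 ± 0.60 (SE, adjusted p 0.593 by edgeR), opposite in sign to snora73, but the sign turned with library size scaling (0.36, adjusted p 0.601). Of the 6 H/ACA members below the filter, the groups overlapped for 5. The counts of snora23 were 1 and 8 in the ovaries and 31 and 5 in the testes. One snora62 copy (ENSDARG00000116745) had 1 and 4 against 1 and 16 counts, and 1 snora63 copy (ENSDARG00000081702) had 2 and 4 against 11 and 1. In each of these 3 a single testis library was high and the other lay within or below the range of the ovaries. The snora62 copy passed without testis replicate 1 (2.70, adjusted p 0.0431 by edgeR). The second snora62 copy (ENSDARG00000081943) had 7 and 2 against 0 and 3 counts, and the second snora63 copy (ENSDARG00000115262) had 6 and 10 against 5 and 12, with a spread within each group as wide as between them. The gene snora74 had 9 and 4 counts in the ovaries and 3 and 1 in the testes, and none of the 6 passed at the lower minimum (edgeR adjusted p from 0.192 to 0.897). The median over the 5 tested H/ACA members was 1.40, and 4 of the 5 were the snora73 copies. With IDs of a symbol summed, the median over the class fell to 0.32.

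Among C/D box genes, U3 gave the largest and least even values. U3 is the RNA of the small subunit processome, the complex that folds and cuts the precursor of small-subunit ribosomal RNA. The symbol u3 covered 29 IDs, of which 11 had a count and 4 had at least 10. The gene ENSDARG00000110937 had 21 and 1881 counts in the ovaries and 1 and 8 counts in the testes, or 1.11 and 126 CPM against 0.0656 and 0.511 CPM. Both ovaries lay above both testes, but the ovaries differed from each other far more than ovary replicate 1 differed from the testes. The log2 fold change was -7.74 ± 2.21 (SE, adjusted p 0.0223 by edgeR).

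That call depended on which libraries were used. Without ovary replicate 2 the gene fell below the filter and was not tested. It did not pass without testis replicate 1 (log2 fold change -6.95, edgeR adjusted p 0.0778), without testis replicate 2 (-9.77, adjusted p 0.0586) or with no filter (adjusted p 0.0516). Without ovary replicate 1 it passed at -8.74 (adjusted p 0.00369).

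In ovary replicate 2 the reads of U3 went almost wholly to this gene. Its share of all U3 counts was 98.8% there (exact binomial 95% interval 98.3 to 99.3%) and 34.4% in ovary replicate 1 (22.7 to 47.7%). In the testes it was 20.0% of 5 counts (0.505 to 71.6%) and 26.7% of 30 counts (12.3 to 45.9%). Without this gene the C/D class added up to 5.29 and 4.23 CPM in ovary against 11.0 and 8.43 CPM in testis. With it the ovary mean was 68.5 ± 87.9 CPM (SD, n = 2), so the order of the group means of the C/D class was set by 1 gene in 1 library.

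The other U3 genes gave few counts and no common direction. ENSDARG00000113149 had 3 and 12 counts in the ovaries and 1 and 11 in the testes, with the groups overlapping (log2 fold change -0.26 ± 1.11 SE, adjusted p 0.845 by edgeR), and the sign turned with library size scaling (0.43). ENSDARG00000113745 had 4 and 5 counts against 0 and 2. ENSDARG00000109928 had 29 counts in ovary replicate 1 and 0 in the other 3 libraries. At the lower minimum it was called higher in ovary (adjusted p 0.0258), but the groups overlap, since the other ovary was also at 0. With no filter it was called as well (adjusted p 0.0460 by edgeR), while ENSDARG00000110937 was not. ENSDARG00000109928 also entered the filterByExpr fits without ovary replicate 2 (log2 fold change -7.73), without testis replicate 1 (-6.78) and without testis replicate 2 (-6.76). In these fits too, all its counts came from ovary replicate 1. Over all 29 IDs, U3 summed to 61 and 1903 counts in the ovaries and to 5 and 30 in the testes. With the U3 copies as 1 feature, the fold change was -5.85 ± 1.74 (SE, adjusted p 0.0254 by edgeR).

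U8, which is named snord118 and acts in the maturation of large-subunit ribosomal RNA, had 5 IDs. Of these, snord118b.1 had 7 and 3 counts in the ovaries and 0 in both testes, snord118b.4 had 1 count and the other 3 had none. Below the filter, snord118b.1 was called at the lower minimum (edgeR adjusted p 0.0467) and not with no filter (adjusted p 0.0698). All its counts came from the ovaries, so it reached that minimum through them alone. Against a floor of 3 counts per testis library, its ovary level was at least 1.47-fold higher.

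None of the 4 tested C/D genes other than U3 and U8 passed, and both testes were above both ovaries in each. Of all 13 C/D members that was so for 7, against 49.2% of all genes at the lower minimum. Of the 4, all but snord97 passed the filter only through the testis libraries, so for them this order was set by the filter. The most read was snord97 (ENSDARG00000080895), a guide of methylation of a transfer RNA in human. It had 32 and 14 counts in the ovaries and 120 and 36 in the testes, or 1.69 and 0.941 CPM against 7.87 and 2.30 CPM. Both testes were above both ovaries, with testis replicate 1 far above the other (log2 fold change 1.93 ± 0.80 SE, adjusted p 0.0749 by edgeR). It passed with library size scaling (adjusted p 0.0306), with a minimum of 10 counts in every library (adjusted p 0.0359) and without testis replicate 2 (2.54, adjusted p 0.0346), and its value was 0.77 without testis replicate 1 (adjusted p 0.450).

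The snord15, snord21, snord24 and snord58 RNAs guide methylation of large-subunit ribosomal RNA in human. The gene snord15b had 3 and 4 counts in the ovaries and 8 and 13 in the testes (log2 fold change 1.66 ± 0.68 SE, adjusted p 0.0716 by edgeR). One snord15 copy (ENSDARG00000113885) had 7 and 4 against 8 and 12 counts (0.98 ± 0.63, adjusted p 0.211), and 1 snord58 copy (ENSDARG00000082811) had 6 and 5 against 13 and 11 (1.23 ± 0.61, adjusted p 0.120). In each of these 3 genes both testes lay above both ovaries, by few counts. All 3 passed the filter only through the testes, which fixed that order. Below the filter, snord21 (ENSDARG00000082960) had 0 counts in both ovaries and 4 and 10 in the testes. That is at least 2.50-fold higher in testis against a floor of 3 counts per ovary library. It was called at the lower minimum (edgeR adjusted p 0.0391) but not with no filter (adjusted p 0.0641), and reached that minimum through the testes alone. The second snord15 copy (ENSDARG00000111557) had 0 and 1 against 4 and 8 counts and did not pass (adjusted p 0.0686 at the lower minimum). The gene snord24 had 2 and 1 against 2 and 5 counts, and 1 snord83 copy had 1 and 0 against 0 and 9. The median over the 6 tested C/D members was 1.11, and 1.23 without the U3 gene.

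Of the Cajal body RNAs, scarna14 (ENSDARG00000105169) had 1 count in each ovary and 20 and 6 in the testes, or 0.0529 and 0.0672 CPM against 1.31 and 0.383 CPM. Both testes were above both ovaries. The ratio of the pooled counts, scaled to the TMM-adjusted library sizes, was 14.2 with an exact counting interval of 3.56 to 124. It was below the filter, and at the lower minimum it was higher in testis, with a log2 fold change of 3.62 ± 1.05 (SE, adjusted p 0.0211 by edgeR). It reached that minimum only through the testes, so the call is a description. When a library was left out under filterByExpr, the gene was tested in 3 of the 4 fits. It passed without testis replicate 2 (adjusted p 0.00437) and did not without ovary replicate 1 (adjusted p 0.111) or ovary replicate 2 (adjusted p 0.0924). The other, scarna8, had 1 and 0 counts in the ovaries and 0 and 3 in the testes.

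Most genes of the proteins that bind, assemble or use these RNAs were higher in ovary. Of 54 listed genes 51 were in the table, and all 51 were tested. The genes were listed with earlier results of these data known, so the shares below are a description. In the ovary 43 were higher (84.3%, against 28.5% of all genes), 3 were higher in testis and 5 did not pass, with a median log2 fold change of -1.93. With library size scaling the split was 37 higher in ovary and 5 higher in testis.

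All 3 core proteins of C/D particles that were in the table were higher in ovary. Fibrillarin (fbl), the methyltransferase, had levels of 188 and 138 CPM in ovary against 27.7 and 41.2 CPM in testis (log2 fold change -2.24 ± 0.30 SE, adjusted p 0.00144 by edgeR). The scaffold nop58 had 221 and 219 against 37.2 and 36.1 CPM (-2.58 ± 0.21, adjusted p 0.00032), and the scaffold nop56 had 351 and 314 against 83.1 and 115 CPM (-1.75 ± 0.27, adjusted p 0.00236). The groups were far apart in each.

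The 4 core proteins of H/ACA particles were higher in ovary as well, while the 2 called RNAs of the class, both snora73 copies, were higher in testis. Dyskerin (dkc1), the pseudouridine synthase, had levels of 158 and 146 CPM in ovary against 36.9 and 43.0 CPM in testis (-1.93 ± 0.22 SE, adjusted p 0.000803 by edgeR). Its partner nhp2 changed by -2.63 ± 0.29 (adjusted p 0.000786) and gar1 by -2.25 ± 0.28 (adjusted p 0.00117). The small subunit nop10 had 17.0 and 15.0 against 5.58 and 4.09 CPM (-1.73 ± 0.41, adjusted p 0.0114). The nop10 call was lost with library size scaling (adjusted p 0.0924), without ovary replicate 1 (adjusted p 0.0567) and without testis replicate 2 (adjusted p 0.0611).

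Of 14 genes for assembly and processing of the particles, 10 were higher in ovary and 2 in testis. The largest change was in parn, a nuclease that trims the ends of small RNAs and shortens poly(A) tails, at 877 and 629 CPM in ovary against 22.7 and 25.5 CPM in testis (-4.96 ± 0.35 SE, adjusted p 0.000216 by edgeR). The C/D assembly factors nufip1 and znhit6 both changed by -3.28 (adjusted p 0.0004 and 0.000239). In the opposite direction went rpap3, a subunit of the R2TP chaperone complex, which was higher in testis by 2.44 ± 0.29 (adjusted p 0.000921). R2TP also assembles other complexes, such as the dynein arms of cilia. Its ATPase ruvbl2 was higher in testis by 0.81 ± 0.24 (adjusted p 0.0262), which did not pass without ovary replicate 2 (adjusted p 0.138), without testis replicate 2 (0.0910), with no filter (0.0536) or with replicate numbers as a block (0.0589).

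Of 4 Cajal body and telomerase genes, coil, which builds the body, changed by -2.37, wrap53, which carries scaRNAs there, by -2.28, and smn1, which assembles spliceosomal particles, by -1.65, all higher in ovary. The catalytic subunit of telomerase, tert, had levels of 35.8 and 42.7 CPM in ovary against 56.6 and 118 CPM in testis (1.15 ± 0.37 SE, adjusted p 0.0330 by edgeR). It did not pass without ovary replicate 1 (adjusted p 0.137), without ovary replicate 2 (0.0902), without testis replicate 2 (0.183) or with no filter (0.0741). Of 26 genes of the U3 particle and small subunit processome, 23 were higher in ovary and 3 (imp4, utp18 and emg1) did not pass. Their median was -1.78, and the largest change was in rcl1, which acts in cutting the precursor (-3.32 ± 0.26 SE, adjusted p 0.000276 by edgeR).

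**Figure D4:**
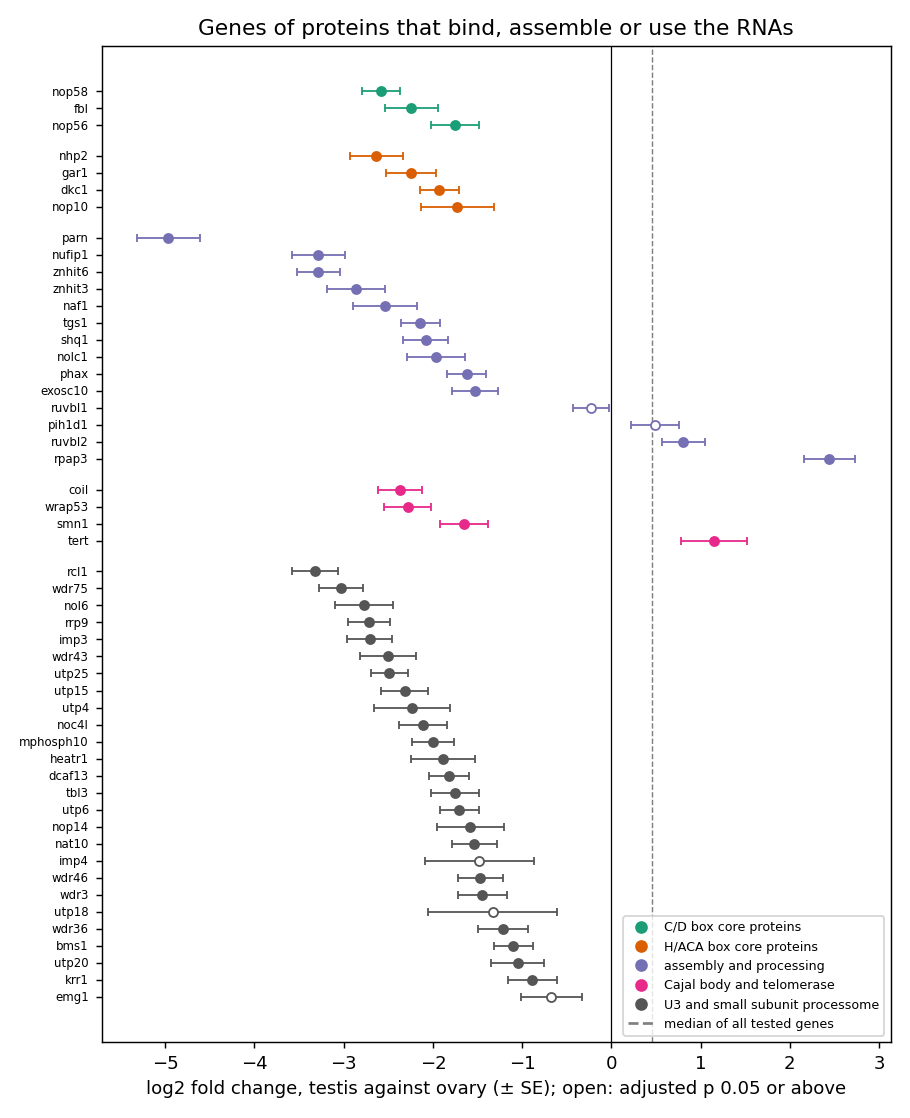
Log2 fold change, testis against ovary, of the 51 listed protein genes by list (points with SE; open points had an adjusted p of 0.05 or above; the dashed line is the median of all tested genes, 0.45). All 7 core proteins lie below 0, and rpap3 at 2.44 lies farthest to the testis side.

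SnoRNA genes lie mostly inside host genes, so the exon counts of the hosts were set beside them. RefSeq's annotation (assembly GRCz12tu) holds 260 snoRNA genes, of which 197 lay within the span of 1 protein-coding or long noncoding gene. None could be tied to a member ID, so the hosts stand for the class and not for single members. Of 80 distinct hosts 58 matched the table by symbol, and 56 were tested. Higher in ovary were 21, higher in testis were 11, and 24 did not pass, with a median of -0.10. Over all genes tested 28.5% were higher in ovary and 36.7% in testis, with a median of 0.45. The host split depended on scaling, with 13 higher in ovary and 23 higher in testis under library size alone, where the shares of all genes were 17.6% and 47.7%.

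Hosts that encode ribosomal proteins differed little. Of 17, 2 were called, rpl37 (log2 fold change 1.03 ± 0.34 SE, adjusted p 0.0366 by edgeR) and rpl13 (0.74 ± 0.25, adjusted p 0.0388), both higher in testis, and the median was 0.14. Without testis replicate 1 the value of rpl37 was 0.52 (adjusted p 0.146) and that of rpl13 was 0.50 (adjusted p 0.148). Neither passed without an ovary library (adjusted p from 0.126 to 0.167), with replicate numbers as a block (0.0749 and 0.0797) or with no filter (0.0665 and 0.0637). The rpl13 call was also lost at the lower minimum (0.0521) and with DESeq2 size factors (0.0626). Of the 39 other hosts, 21 were higher in ovary and 9 in testis. The long noncoding host gas5, which spans 10 snoRNA genes, had levels of 49.0 and 52.8 CPM in ovary against 5.77 and 9.58 CPM in testis (-2.73 ± 0.33, adjusted p 0.00109). Among hosts higher in testis the largest change was in pabpc1b, a poly(A) binding protein gene at 7.31 and 28.4 CPM in ovary against 381 and 617 CPM in testis (4.81 ± 0.71, adjusted p 0.00214). The core protein genes nop58 and dkc1 are themselves hosts, spanning 3 and 5 snoRNA genes.

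**Figure D5:**
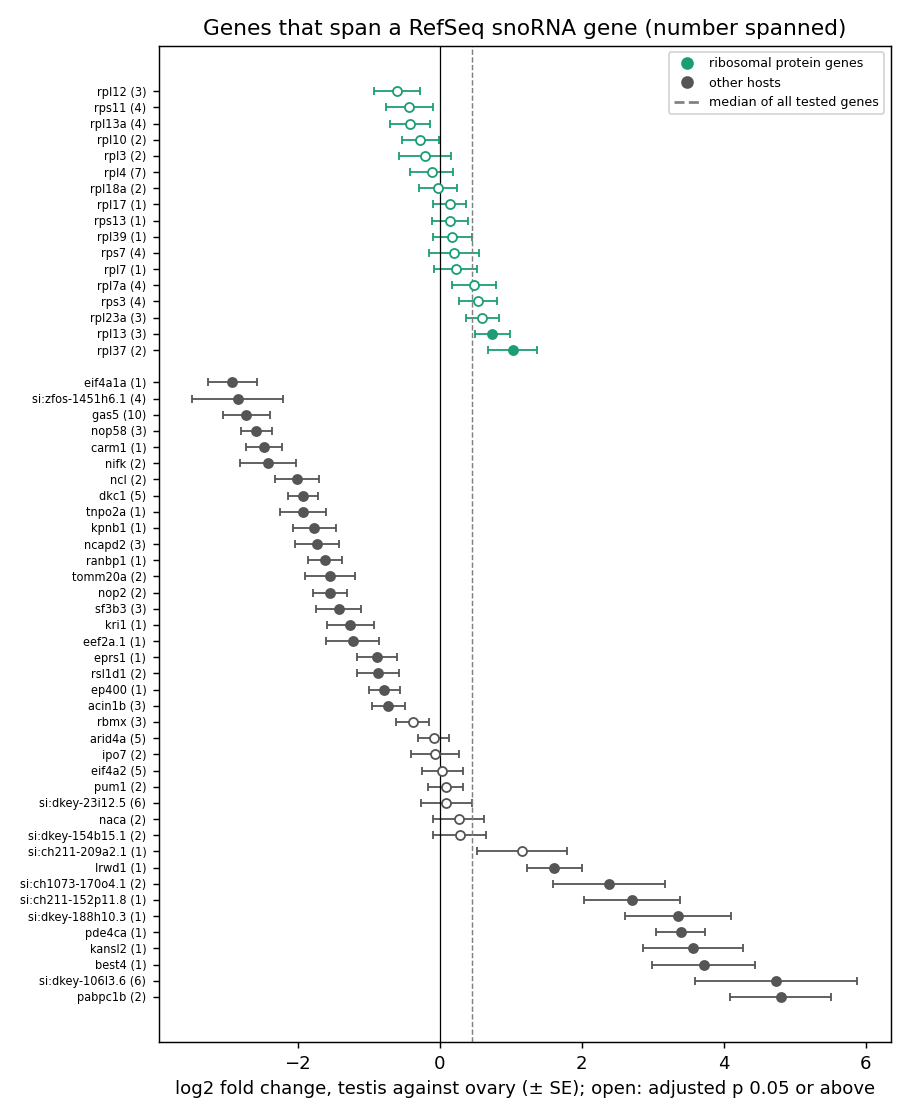
Log2 fold change, testis against ovary, of the 56 tested genes that span a RefSeq snoRNA gene, with the number spanned in brackets (points with SE; open points had an adjusted p of 0.05 or above; the dashed line is the median of all tested genes). Ribosomal protein hosts cluster near 0, with rpl37 highest at 1.03, while the other hosts range from eif4a1a at -2.93 to pabpc1b at 4.81.

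For some members the human namesake has a known host, and the zebrafish gene of that name could be read. These pairs were chosen after values were seen, and whether the zebrafish member lies in that gene was not tested. In human the namesakes of snora73 lie in the locus of SNHG3 and RCC1. The zebrafish rcc1 gene, a regulator of chromosome condensation, had levels of 662 and 466 CPM in ovary against 13.1 and 23.8 CPM in testis (-4.93 ± 0.43 SE, adjusted p 0.000373 by edgeR), opposite in sign to snora73. The human namesake of snord97 lies in EIF4G2, and both zebrafish eif4g2 IDs were higher in ovary (-3.34, adjusted p 0.00043, and -1.12, adjusted p 0.0303), again opposite in sign to the value of snord97. The second of these calls was lost with library size scaling (-0.36, adjusted p 0.287), with at least 10 counts in every library (0.109), with the replicate block (0.0907), without ovary replicate 1 (0.103) and without testis replicate 1 (0.117). The namesake hosts of snora63 and snora81 (eif4a2, 0.04), snora23 (ipo7, -0.07), snord58 (rpl17, 0.14), snord24 (rpl7a, 0.49), snord15 (rps3, 0.54) and snord83 (rpl3, -0.20) did not pass. With library size scaling eif4a2, rpl17, rpl7a and rps3 were called higher in testis, and the signs of ipo7 and rpl3 turned without a call.

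Some members were at 0 where the namesake host was well read, and others were not. Over all member IDs 43.0% had a count. For eif4a2, rps3 and rpl17, 4 of 4, 3 of 4 and 2 of 2 member IDs had counts. For rpl3, rpl7a and rpl13a it was 2 of 4, 1 of 4 and 1 of 2. In human the snord47, snord74, snord75, snord79 and snord80 RNAs lie in GAS5, and the 7 zebrafish IDs of these names had no count in any library, while gas5 itself had 926 and 785 counts in the ovaries and 88 and 150 in the testes. The 6 IDs named snord16 and snord18, which lie in RPL4 in human, had 1 count in all, and rpl4 had between 7239 and 11020 counts in each library. The 4 snora73 IDs, by contrast, summed to more counts than rcc1 in each testis, at 604 against 199 and 543 against 373. In each ovary they summed to fewer, at 210 against 12514 and 213 against 6929. Counts are not corrected for gene length, so they do not rank the levels of these genes.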

How the data were processed

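Gonad RNA of 2 female and 2 male fish was sequenced. The labels give rRNA depletion and a stranded library kit, whereas the study's methods describe poly(A) selection for adult libraries that may not include these controls, and enrichment by poly(A) would lower snoRNA reads. The kind of library was not tested. In the submitters' processing notes, reads were checked with FastQC 0.11.8, aligned with HISAT2 2.0.5 to GRCz11, handled with SAMtools 1.5 and counted with HTSeq 0.9.1, and the deposited values are raw counts per Ensembl gene, which the authors' methods say were made after removing duplicate reads. Duplicate removal lowers the counts of short, abundant RNAs, and standard fragment sizes can miss RNAs as short as snoRNAs.

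Counts were tested with edgeR 4.0.16 in R 4.3.3 (filterByExpr, TMM, glmQLFit without the legacy option, glmQLFTest, no covariate). The test was also run on simulated counts in which far fewer genes changed and all genes shared a common spread. That run therefore cannot show how reliable the calls here are. The p-values rest on the spread between 2 fish in each group, which edgeR moderates with the spread of all genes tested. In a fit that leaves out a library, that group has a single fish, so its own spread is not measured. DESeq2 1.42.0, 2 other scalings, other filters, a stricter threshold, summed copies, a replicate block, edgeR's legacy option and leaving out each library were tried as alternatives. A member with 0 counts in a group was set to a floor of 3 counts per library. The members and gene lists were chosen with earlier results of these data known. Members named were the 6 most read in each class, those past the threshold, and each U3 or U8 gene with at least 10 counts. Proteins named were the core proteins and the most changed of the others. Remaining members with at least 10 counts were added after values were seen.

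Hosts were to be genes spanning a member on the same strand. The RefSeq table has no strand and no ID that ties its snoRNA genes to members, so hosts were genes spanning any RefSeq snoRNA gene, matched by symbol. Neither sequences nor coordinates of the members are given. Replicate numbers are shared between groups by label only, and the correlation of same-numbered deviations was -0.05. Replicates differed beyond counting noise, with a chi-square per degree of freedom of 56.7 for ovaries and 31.5 for testes.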

Additional observations from a re-analysis of the deposited data

How the results depend on the processing

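No named gene called in the main comparison changed direction under the alternatives. Among named genes not called there, u3 ENSDARG00000113149, snora81, 1 snora63 copy (ENSDARG00000115262), eif4a2, ipo7, rpl17 and rpl3 had either sign. The split of hosts turned with library size scaling, from 21 higher in ovary and 11 in testis to 13 and 23. Against 3 of 11 tested members called, there were 9 of 11 with library size scaling and 4 of 11 with DESeq2. Of 21815 genes, DESeq2 called 7453 higher in testis and 6570 higher in ovary. With no filter 5 of 46 were called, beside 7314 genes higher in testis and 6049 higher in ovary of 29285. With at least 10 counts in total 7 of 25 were called. With at least 10 counts in every library 5 of 5 were called, beside 4566 genes higher in testis and 4552 higher in ovary of 15277. At an adjusted p of 0.01 there were 0 of 11 (5 had an unadjusted edgeR p under 0.05, and DESeq2 called 3 at 0.01). The share of all genes called at 0.01 is not given here, so the counts at 0.01 are a description only. The fits that left out a library tested from 14 to 16 members, so their calls are not set against the 11. The U3 ID called higher in ovary was not the same one in all of these fits. Against 1 of 6 C/D members called, there were 5 of 6 with library size scaling and 0 of 6 at 0.01. With at least 10 counts in total there were 4 of 13. Against 2 of 5 H/ACA members, there were 4 of 5 with library size scaling and 0 of 5 at 0.01. With at least 10 counts in every library there were 4 of 4. With copies summed there were 1 of 3, beside 8000 genes higher in testis and 6216 higher in ovary of 21812. Of the Cajal body members 1 was called with no filter, 1 with at least 10 counts in total and 1 without testis replicate 2. Against 32 hosts called, there were 20 at 0.01 and 21 to 27 without a library. Calls among protein genes stayed within 1.5 times of 46.

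The C/D median of 1.11 was 1.85 with library size scaling, 2.36 for the 1 gene with at least 10 counts in every library, 1.52 with copies summed and 0.67 to 1.22 without a library. The H/ACA median of 1.40 was 2.14, 1.92 and 0.32 under the same 3 settings, 0.90 with no filter and 1.15 to 1.62 without a library. With library size scaling the summed levels were 13 CPM for the C/D class in testis, and 12.4 CPM in ovary and 53.5 CPM in testis for the H/ACA class. The causes were not tested. Numbers do not pair the fish. The fit with the replicate block called 2 of 11 members, 1 of them H/ACA, and lost snora73 ENSDARG00000080823 (edgeR adjusted p 0.0603). Of 21815 genes, that fit called 7191 higher in testis and 5610 higher in ovary. With member counts this low, small differences were not detectable at this depth.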

Other observations

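Some other short noncoding RNAs, chosen after values were seen, had more counts over the 4 libraries than any snoRNA gene. The RNA of the RNase MRP particle (rmrp), which cuts the ribosomal RNA precursor, had 1739 and 1624 counts in the ovaries and 3354 and 3011 in the testes, and was higher in testis, with a log2 fold change of 1.04 ± 0.23 (SE, adjusted p 0.00839 by edgeR). Its relative in RNase P (rpph1) had levels of 200 and 787 CPM in ovary against 1236 and 1840 CPM in testis (1.64 ± 0.69, adjusted p 0.0785). Both testes were above both ovaries in each, as for snora73 and for 48.1% of all genes past filterByExpr. The transcription regulator 7SK (rn7sk) had levels of 19.1 and 44.3 CPM in ovary against 975 and 665 CPM in testis (4.69 ± 0.53, adjusted p 0.000817). The most read of these RNAs, rn7sl1, had 137 and 249 CPM in ovary against 2720 and 4607 CPM in testis (4.25 ± 0.69, adjusted p 0.00299 by edgeR). Whether these RNAs and the snoRNA genes differ for a shared reason was not tested.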
